A study of Mus musculus with 8 samples.

Results

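The genes described here are 34 genes of blood vessels, 19 expressed by the endothelial cells that line them, 7 by pericytes, 4 by smooth muscle and other contractile cells, and 4 encoding vessel growth factors. They were followed in mouse dorsal root ganglia after ligation of a spinal nerve. They were taken by name from a table of read counts for 53801 genes, and 34 of 34 were found and had enough reads to be tested. RNA was sequenced in 8 libraries, and each pooled the ganglia L3 to L5 of 3 mice. For the injured side, the left L4 spinal nerve of male C57BL/6J mice was tightly ligated and the left ganglia were collected at day 1, 3 or 7, with 1 library a day, and these libraries include adjacent ganglia with an intact nerve. For the contralateral side, the right ganglia of the same mice were collected on the same days, again with 1 library a day. A further pool labelled no injury and WT gave 1 library of the left and 1 of the right ganglia. A sham operation is mentioned in the labels' protocols, but the labels do not say whether these mice had one. No age is stated. The 3 operated pools are the replicates of the injured state; single days have none.

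Blood vessels of the ganglia consist of a tube of endothelial cells wrapped by mural cells, which are pericytes on capillaries and smooth muscle cells on larger vessels. Endothelial cells sense vascular endothelial growth factor through the receptor kinase Kdr and angiopoietins through the receptor kinase Tek, and capillaries around sensory neuron cell bodies are known to be more permeable than those inside the nerve. After nerve injury, macrophages, fibroblasts and satellite glia around the neurons also change, and they share the tissue with the vessels.

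As sequence context, the 250 bases before the start of transcription (as RefSeq places it) are shown for 2 genes that passed the test in opposite directions, the receptor gene Kdr, higher on the injured side, and the ligand gene Angpt4, lower on the injured side. Both sequences are from RefSeq (GRCm38.p6), Kdr from the minus strand of chr5:75978456-75978705 and Angpt4 from the plus strand of chr2:151910957-151911206, and are written 5′ to 3′. The last 3 bases of the Kdr window lie within the gene as GENCODE M21 annotates it. Capitals mark GGAAG, one form of the core bound by ETS factors (transcription factors active in endothelial cells), on either strand. CTTCC is this form read from the other strand, and other forms of the core are not marked.
Kdr: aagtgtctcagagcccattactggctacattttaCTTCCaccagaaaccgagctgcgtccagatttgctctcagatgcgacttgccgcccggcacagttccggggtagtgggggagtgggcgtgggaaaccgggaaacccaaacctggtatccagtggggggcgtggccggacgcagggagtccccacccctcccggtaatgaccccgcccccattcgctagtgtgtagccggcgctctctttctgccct
Angpt4: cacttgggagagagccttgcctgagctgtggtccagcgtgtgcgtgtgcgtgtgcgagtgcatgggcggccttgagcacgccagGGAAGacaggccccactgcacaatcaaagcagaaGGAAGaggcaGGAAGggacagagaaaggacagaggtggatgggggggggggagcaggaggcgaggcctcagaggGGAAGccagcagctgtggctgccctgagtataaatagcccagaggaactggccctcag
The Kdr window holds 1 GGAAG and the Angpt4 window 4, and other forms of the core were not counted. Of the 34 genes 21 had an entry among the RefSeq promoters, with 24 windows in all, and 12 of these 21 genes held GGAAG. By window this was 14 of 24, against 64.1% of the 32851 promoter windows of this length. ACGTG, one form of the core bound by hypoxia-inducible factors, was in 2 of 21 genes (Notch3 and Vegfa). By window this was 2 of 24, against 16.6% of all windows. The CArG box, the motif of serum response factor, was in 0 of 21 genes and 0 of 24 windows in the form searched, and in 1.47% of all windows. Variants outside that form were not counted, so a count of 0 does not show that the box is absent. Both strands were searched and matches to different motifs may share bases.

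Sequencing depth was even, at 20488115 to 21652688 reads per library, so that 3 reads, the upper limit for a gene with a count of 0, correspond to 0.14 to 0.15 CPM (read counts scaled to equal library totals). Such limits and all counting intervals cover counting error only. Atf3, a gene known to rise in neurons after axon injury, reached 464 to 629 CPM in the injured libraries, against 110 to 167 CPM in their contralateral partners and 10.9 and 10.99 CPM in the libraries without injury. In 3 respects libraries stood apart. The contralateral libraries held more RNA of injury genes than those without injury. Besides Atf3 this was seen in Sprr1a, a further gene known to rise in injured neurons, at 9.13, 466 and 915 CPM in the injured libraries of days 1, 3 and 7, at 3.52, 126 and 130 CPM in the contralateral ones and at 0.14 and 0.32 CPM without injury. Every side ratio is taken over these contralateral libraries, and the part of their injury gene RNA in the values of the vessel genes was not tested. The pair labelled no injury had 4931 and 4129 reads of Xist (a female-specific transcript) and 0 reads of Y-linked Kdm5d. Each operated library had at most 3 Xist reads, and the labels give male mice. Sex, pool and operation therefore cannot be told apart between these libraries and the others. The contralateral library of day 1 held 485 CPM of 7 marrow neutrophil markers together, against 20.1 to 258 CPM in the other libraries. Values without the day 1 pool are given below for some of the genes only.

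All 34 genes were detected in every library (values of 3 libraries are given in the order of days 1, 3 and 7, and those without injury as left, then right), and the defining endothelial, pericyte and smooth muscle genes were all present. Levels are compared between genes per kilobase of exon (RPKM, computed from the counts with exon lengths of GENCODE M21). Averaged over the 8 libraries, the melanoma cell adhesion molecule gene Mcam stood highest at 89.8 RPKM and Rgs5, a G protein regulator used as a pericyte marker, second at 37.5 RPKM. Far below followed Vegfa (12.1 RPKM), the smooth muscle actin-binding gene Tagln (11.5 RPKM) and the tight junction gene Cldn5 (10.1 RPKM), while the angiopoietin gene Angpt4 was the lowest at 0.34 RPKM with as few as 6 reads in a library. The pericyte potassium channel subunits Kcnj8 and Abcc9 were also scarce, at 0.76 and 0.59 RPKM. Whether reads were counted by strand is unknown here, and 62.4% of the exon bases of Tagln are shared with an antisense gene and 33.4% of those of Ramp2 with its neighbour Vps25, so reads of these pairs cannot be told apart.

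**Figure D1:**
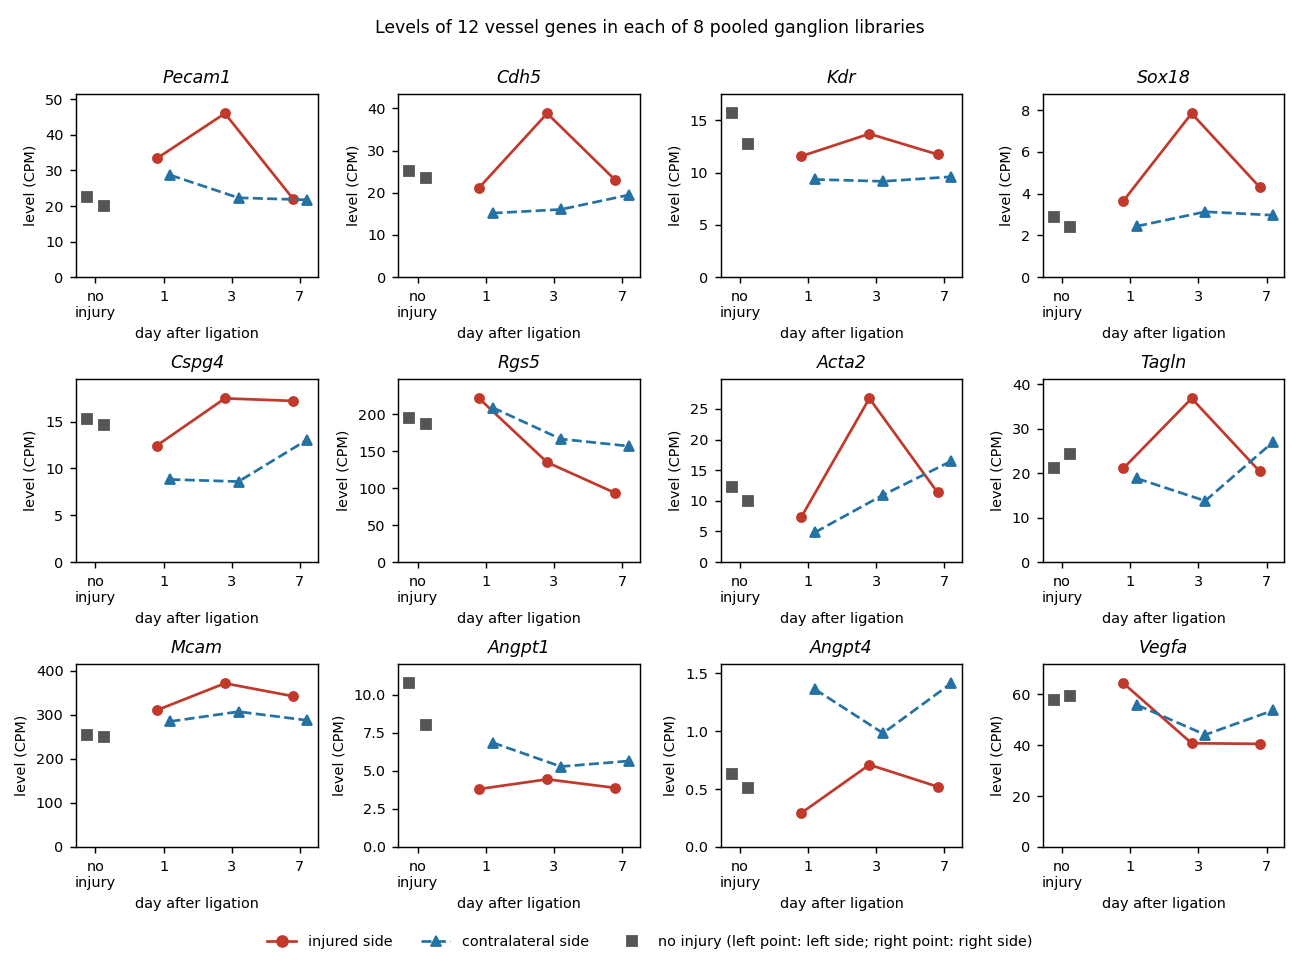
Level of 12 of the 34 genes in each library, in CPM from 0 (vertical axis), by day after ligation (horizontal axis, days not to scale). Red circles are injured-side libraries, blue triangles contralateral libraries of the same mice and grey squares the left and right side without injury, 1 pool of 3 mice each; Pecam1, Cdh5, Sox18, Acta2 and Tagln are highest in the injured library of day 3, and Rgs5 is lowest in that of day 7.

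Between injured and contralateral ganglia, most of the vessel genes were higher on the injured side, but few differences passed the test. The fit over 8 libraries was blocked by mouse pool (edgeR quasi-likelihood test, adjusted over all genes tested, 3 residual degrees of freedom). Its difference is thus that of injured over contralateral libraries of the same pool. The left and right libraries without injury enter only through the spread. At an adjusted p under 0.05, 5 of 34 were higher and 1 was lower. Over all 16244 genes tested, 10.1% were called higher and 8.02% lower, so the share of vessel genes called is near that of all genes. The fitted log2 difference was positive for 30 of 34, with a median of 0.32 against 0.02 over all genes, and 13 of 34 had an unadjusted p under 0.05 against 5641 of 16244 genes. In tissue RNA, more cells of a type and more RNA per cell cannot be told apart. The called set rested on the pools used. Without the day 7 pool 4 were higher (Esam, Eng, Cspg4 and Acta2) and 0 lower, while 475 of all genes were called higher and 156 lower. Without the day 3 pool only Cspg4 was called (651 of all genes higher, 334 lower). Again only Cspg4 was called without the pool labelled no injury (763 of all genes higher, 449 lower). Without the day 1 pool 7 were higher and 2 lower, while 2382 of all genes were called higher and 2287 lower. Adding the side of the body as a further term left 0 of 34 called, with 6 genes called of all those tested. Injury and side coincide in the operated pools, so that term rests on the left and right libraries without injury alone.

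Among the 11 surface, junction and secreted genes of the endothelium, 0 passed the test, and all 11 fitted differences were positive (median log2 0.35). Pecam1, the platelet endothelial adhesion molecule (chromosome 11, 106654217 to 106750628, minus strand, GRCm38), stood at 33.4, 46.1 and 22.0 CPM in the injured libraries, at 28.7, 22.3 and 21.7 CPM in the contralateral ones and at 22.4 and 20.04 CPM without injury. The injured side was highest at day 3 and level with the other side at day 7, so the groups overlapped (log2 0.43 ± 0.19, SE, 3 injured pools; edgeR adjusted p = 0.171). VE-cadherin (Cdh5), which holds endothelial cells together (chromosome 8, 104101625 to 104144511), stood at 21.2, 38.8 and 23.0 CPM in the injured libraries, at 15.2, 16.0 and 19.5 CPM in the contralateral ones and at 25.1 and 23.6 CPM without injury. Each injured library lay above each contralateral one, by 1.59-fold in the fit (log2 0.67 ± 0.19, SE; edgeR adjusted p = 0.0586, and 0.00634 with DESeq2, which called it), but only the injured library of day 3 lay above the libraries labelled no injury. Of the others, the sialomucin gene Emcn (log2 0.35, edgeR adjusted p = 0.0937) and the junctional adhesion gene Esam (log2 0.37, adjusted p = 0.0711) came nearest to the threshold. The TGF-beta co-receptor Eng stood at 26.99, 27.7 and 16.3 CPM in the injured libraries, at 17.3, 13.5 and 21.2 CPM in the contralateral ones and at 17.3 and 18.2 CPM without injury. The injured side was the higher one at days 1 and 3 and the lower one at day 7 (log2 0.43 ± 0.27, SE; edgeR adjusted p = 0.317). The coagulation factor carrier Vwf, the fenestral diaphragm gene Plvap, Cldn5, Robo4, Egfl7 and Ramp2 had fitted log2 differences of 0.16 to 0.39.

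The 4 endothelial receptor tyrosine kinases were all fitted higher, and Kdr was called. Kdr, the main signalling receptor for VEGF (chromosome 5, 75932827 to 75978458, minus strand), stood at 11.6, 13.7 and 11.7 CPM in the injured libraries, at 9.34, 9.17 and 9.60 CPM in the contralateral ones and at 15.7 and 12.7 CPM without injury. The injured and contralateral libraries did not overlap, with 1.31-fold in the fit (log2 0.39 ± 0.11, SE; edgeR adjusted p = 0.04705). It was called in 2 of 11 alternatives, not with DESeq2 or limma-voom. Against the libraries labelled no injury alone the sign turned (log2 -0.20), since their mean (14.2 CPM) lay above that of the injured libraries (12.3 CPM). Tie1, an orphan relative of Tek, reached 19.2 CPM in the injured library of day 3 and 11.4 CPM in those of days 1 and 7, against 8.88 to 10.5 CPM contralaterally (log2 0.48 ± 0.15, SE; edgeR adjusted p = 0.0637). Tek itself stood at 9.57, 13.3 and 7.72 CPM in the injured libraries and at 7.28, 7.34 and 8.24 CPM in the contralateral ones, overlapping at day 7 (log2 0.39, adjusted p = 0.143). Flt1, the decoy receptor for VEGF, differed least of the 4 (log2 0.16, adjusted p = 0.353).

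The endothelial transcription factor gene Sox18 had the highest fitted log2 difference of the 34. Sox18 (chromosome 2, 181669836 to 181671640, minus strand) stood at 3.66, 7.85 and 4.31 CPM in the injured libraries, at 2.44, 3.13 and 2.97 CPM in the contralateral ones and at 2.89 and 2.40 CPM without injury. Every injured library lay above every uninjured one, with a fitted rise of 1.77-fold (log2 0.82 ± 0.20, SE, 3 injured pools; edgeR adjusted p = 0.0294). DESeq2, limma-voom and the fit without the day 1 pool also called it, while the fits without the day 3, the day 7 or the no injury pool did not. Its relative Sox17 stood at 5.12, 8.37 and 6.63 CPM in the injured libraries, at 4.37, 5.24 and 6.31 CPM in the contralateral ones and at 3.71 and 3.37 CPM without injury (log2 0.32, edgeR adjusted p = 0.172). Here both sides of the operated mice lay above the libraries labelled no injury. The barrier transporters Abcb1a and Slco1a4, which pump drugs and organic anions, were not called (log2 0.30 and 0.18).

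**Figure D2:**
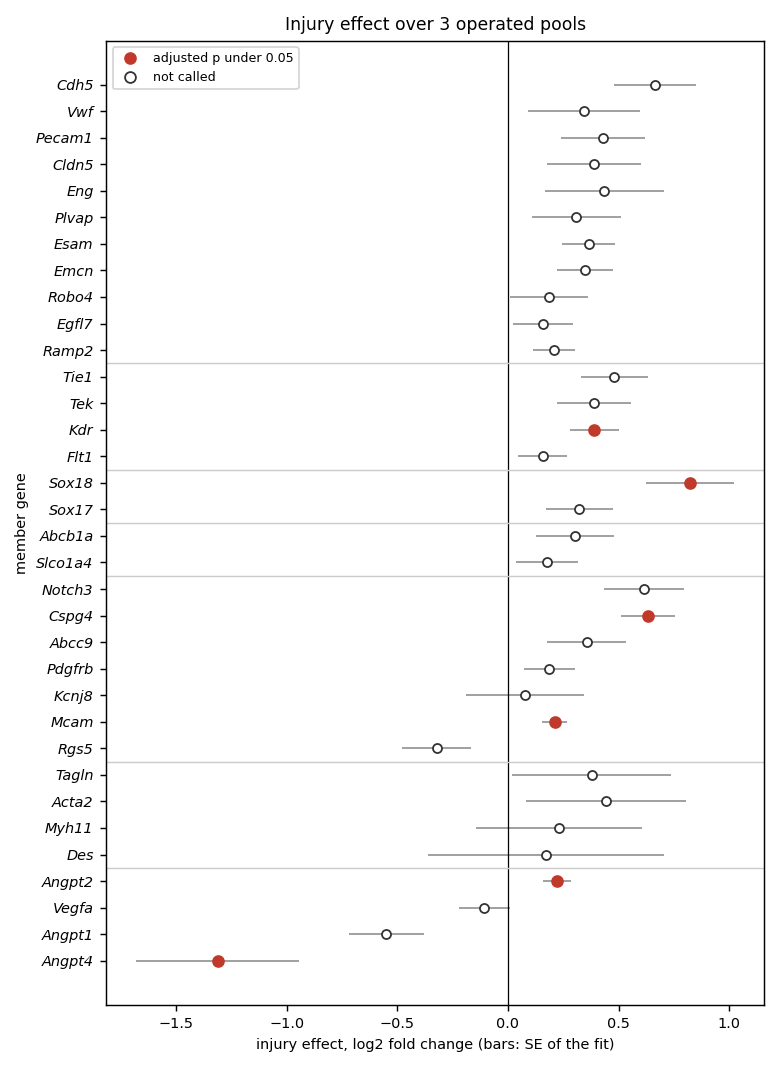
Fitted injury effect of each of the 34 genes, as log2 fold change of injured over contralateral libraries of the same pool (horizontal axis, with bars for the SE of the fit), grouped by role from top to bottom as in the text. Red points passed an adjusted p under 0.05: Kdr, Sox18, Cspg4, Mcam and Angpt2 are to the right of 0 and Angpt4 to the left at -1.31.

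Of the 7 pericyte genes 2 were called higher and 0 lower, and 6 had a positive fitted difference. Cspg4, a proteoglycan of the pericyte surface that glial precursors also make (chromosome 9, 56865033 to 56899870), stood at 12.4, 17.5 and 17.2 CPM in the injured libraries, at 8.83, 8.60 and 13.0 CPM in the contralateral ones and at 15.3 and 14.6 CPM without injury. In each pool the injured side was higher, and the groups overlapped only across days (1.55-fold, log2 0.63 ± 0.12, SE; edgeR adjusted p = 0.0144). It was the one gene of the 34 called without any single pool in turn, and in 8 of 11 alternatives, but against the libraries labelled no injury alone its log2 difference was 0.075 (adjusted p = 0.785). Mcam (chromosome 9, 44134469 to 44142727) stood at 310, 371 and 342 CPM in the injured libraries, at 285, 307 and 288 CPM in the contralateral ones and at 254 and 249 CPM without injury. The 3 groups of libraries did not overlap, although the rise was only 1.16-fold (log2 0.21 ± 0.06, SE; edgeR adjusted p = 0.0398). It was called in 6 of 11 alternatives. Averaged over the 8 libraries Mcam stood at 89.8 RPKM, against 0.59 to 37.5 RPKM for the other pericyte genes. Which cells made its RNA was not tested. Notch3, the Notch receptor of mural cells, lay between Cspg4 and Mcam in size of change at 1.53-fold and missed the threshold (log2 0.61 ± 0.18, SE; edgeR adjusted p = 0.0560). It was called with DESeq2 (adjusted p = 0.0430), with no filter on low counts (edgeR adjusted p = 0.0284) and without the day 1 pool (adjusted p = 0.0411), while against the libraries without injury alone its log2 difference was 0.030.

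Rgs5 was the pericyte gene with a negative fitted difference. It (chromosome 1, 169655501 to 169695813) stood at 222, 135 and 93.4 CPM in the injured libraries, at 209, 167 and 157 CPM in the contralateral ones and at 195 and 187 CPM without injury. The injured side was level with the other at day 1 and below it at days 3 and 7 (log2 -0.32 ± 0.15, SE; edgeR adjusted p = 0.199). Without the day 1 pool Rgs5 was called lower (log2 -0.55, edgeR adjusted p = 0.00245). Pdgfrb, the receptor that recruits pericytes, stood at 34.3, 39.4 and 31.9 CPM in the injured libraries, at 29.1, 27.7 and 35.8 CPM in the contralateral ones and at 39.7 and 38.1 CPM without injury, with the groups overlapping (log2 0.19, edgeR adjusted p = 0.292). Kcnj8 stood at 1.85, 1.51 and 1.99 CPM in the injured libraries, at 2.54, 1.08 and 1.65 CPM in the contralateral ones and at 2.89 and 2.03 CPM without injury, and the groups overlapped. Neither Kcnj8 nor Abcc9 was called (log2 0.08 and 0.36).

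None of the 4 contractile genes passed the test, and in 3 of them the side difference had opposite signs at different days. Smooth muscle actin (Acta2), also made by activated fibroblasts (chromosome 19, 34241090 to 34255590, minus strand), stood at 7.32, 26.7 and 11.4 CPM in the injured libraries, at 4.84, 10.9 and 16.5 CPM in the contralateral ones and at 12.3 and 9.88 CPM without injury. Tagln stood at 21.1, 36.8 and 20.4 CPM in the injured libraries, at 18.8, 13.7 and 27.1 CPM in the contralateral ones and at 21.2 and 24.2 CPM without injury. Smooth muscle myosin (Myh11) stood at 5.37, 12.5 and 5.96 CPM in the injured libraries, at 4.23, 6.03 and 9.70 CPM in the contralateral ones and at 13.1 and 7.85 CPM without injury. In these 3 genes the injured side was the higher one at days 1 and 3 and the lower one at day 7, when the contralateral library had its highest value of the 3 days. Desmin (Des), an intermediate filament of all muscle, had 26.1 CPM in the right library without injury, against 7.71 CPM in the left one and 2.35 to 7.57 CPM elsewhere. The 7 skeletal muscle markers moved with it, at 1076 CPM together in that right library, 157 CPM in the left one and 15.1 to 116 CPM in the operated libraries, and their part in the Des values was not tested.

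The 4 growth factor genes had the lowest median difference of the groups (log2 -0.33), with 1 called higher and 1 lower. Angpt1, the ligand that activates Tek and stabilises vessels (chromosome 15, 42424723 to 42676977, minus strand), stood at 3.81, 4.45 and 3.88 CPM in the injured libraries, at 6.86, 5.28 and 5.65 CPM in the contralateral ones and at 10.7 and 7.99 CPM without injury. The 3 groups of libraries did not overlap, with the injured side lowest (0.68-fold, log2 -0.55 ± 0.17, SE; edgeR adjusted p = 0.0590). It was called lower without the replicate block (log2 -0.85, adjusted p = 0.0338) and against the libraries labelled no injury alone (log2 -1.21, adjusted p = 0.0213). Angpt2, which antagonises Tek signalling in most settings (chromosome 8, 18690263 to 18741562, minus strand), stood at 24.4, 34.1 and 26.0 CPM in the injured libraries, at 21.6, 27.8 and 22.5 CPM in the contralateral ones and at 22.6 and 21.7 CPM without injury. The rise was small and alike in the 3 pools, at 1.17-fold (log2 0.22 ± 0.06, SE; edgeR adjusted p = 0.0433). It was called in 2 of 11 alternatives, limma-voom and library size alone, and in none of the fits that left out a pool (adjusted p = 0.0557 without day 1).

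Angpt4 was the only one of the 34 genes called lower. Angpt4, a further Tek ligand (chromosome 2, 151911210 to 151945337), stood at 0.29, 0.71 and 0.52 CPM in the injured libraries, at 1.36, 0.98 and 1.41 CPM in the contralateral ones and at 0.63 and 0.51 CPM without injury. All 3 injured libraries lay below the contralateral ones and on either side of those without injury (0.40-fold, log2 -1.31 ± 0.37, SE; edgeR adjusted p = 0.0453). The values rest on few reads, 6 against 29 at day 1. It was called in 3 of 10 alternatives, with log2 values of -1.76 to -0.15, and in none of the fits that left out a pool (log2 -0.97, adjusted p = 0.0954 without day 1). Against the libraries without injury alone the log2 difference was -0.15, and DESeq2 gave no adjusted p for this gene. Vegfa, the growth factor that drives vessel sprouting (chromosome 17, 46016993 to 46032369, minus strand), stood at 64.2, 40.7 and 40.5 CPM in the injured libraries, at 55.7, 44.0 and 53.7 CPM in the contralateral ones and at 57.5 and 59.2 CPM without injury. It was above the contralateral library at day 1 and below it at days 3 and 7 (log2 -0.11, edgeR adjusted p = 0.561), and without the day 1 pool it was called lower (log2 -0.29, adjusted p = 0.0243).

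Read day by day, the side ratio of most vessel genes was highest at day 3. A side ratio is the injured over the contralateral library of the same mice (log2 CPM with TMM factors and 2 prior counts; genes were countable from 50 reads in the higher of both libraries), and it has no replicate check. At day 3, 9 of 32 countable genes were at least 2-fold higher and 0 lower, while 6.37% of all genes were that much higher and 1.08% lower. The highest were Tagln (2.59-fold, 95% counting interval 2.27 to 2.98), Sox18 (2.40-fold, 1.80 to 3.25), Acta2 (2.36-fold, 2.03 to 2.77) and Cdh5 (2.35-fold, 2.07 to 2.67). Notch3 (2.18-fold) and Vwf (2.12-fold) followed, and Myh11, Pecam1 and Cldn5 lay just inside the limit at 2.00-fold. Just outside lay Eng at 1.99-fold and Cspg4 at 1.97-fold. All 19 endothelial genes had a ratio above 1 at day 3, from 1.29-fold in Ramp2, with a median log2 of 0.68. The median log2 over the countable genes was 0.67 at day 3, against 0.26 at day 1, 0.04 at day 7 and 0.08 for left over right in the pool without injury, and it was 0.02 or less over all genes in each pool.

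At day 1, 0 of 33 countable genes reached 2-fold in either direction, as 0.919% of all genes did upward and 1.51% downward. The highest log2 ratios were those of Eng (0.67) and Acta2 (0.62), and the lowest those of Angpt1 (-0.80) and Kcnj8 (-0.40, on 38 and 54 reads). Without the day 1 pool, the injury effect of these 4 was log2 0.31 in Eng, 0.37 in Acta2, -0.42 in Angpt1 and 0.35 in Kcnj8, and none was called (lowest edgeR adjusted p = 0.132, in Angpt1). At day 7, 0 of 32 reached 2-fold, against 3.12% of all genes upward and 0.732% downward. Sox18 (log2 0.52) and Cspg4 (0.39) were then highest, and Rgs5 (-0.75) and Myh11 (-0.70) lowest, followed by Acta2 (-0.54) and Angpt1 (-0.54). Between the uninjured left and right libraries, where 0.402% of all genes were 2-fold higher and 0.493% lower on the left, the only gene of the 34 past 2-fold was Des (log2 -1.76).

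**Figure D3:**
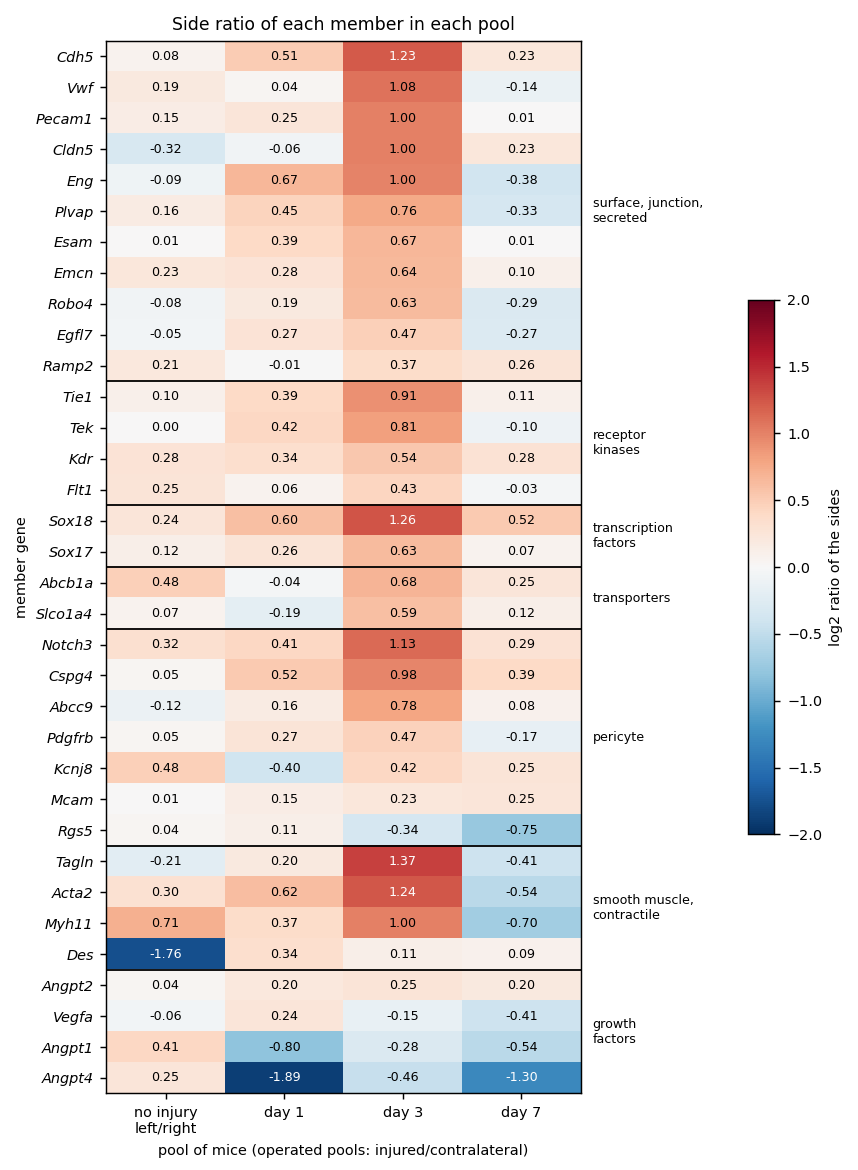
Log2 side ratio of each of the 34 genes (rows, grouped by role) in each pool (columns): left over right without injury, then injured over contralateral at days 1, 3 and 7. Red is higher and blue lower on the injured (or left) side, and the number in each cell is the ratio; Angpt4, and Kcnj8 at days 3 and 7, are shown although they had under 50 reads. The day 3 column is red for all 19 endothelial genes, and 3 smooth muscle genes turn blue at day 7.

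The ratio was highest at day 3 in 30 of the 34 genes, against 33.9% of all genes. The exceptions were Rgs5, Vegfa and Des, highest at day 1, and Mcam, highest at day 7. The ratio was above 1 in all 3 pools in 14 genes (28.4% of all genes): Pecam1, Cdh5, Kdr, Tie1, Emcn, Esam, Sox17, Sox18, Cspg4, Abcc9, Notch3, Des, Mcam and Angpt2. It was below 1 in all 3 in Angpt1 and Angpt4 (25.3% of all genes). To set day 3 against the other days with a test, a comparison chosen after these values were seen fitted the injury effect at day 3 against that at days 1 and 7 (edgeR, 2 residual degrees of freedom). It called 0 of 34, and 0.0123% of all genes higher and 0.0% lower. With edgeR 13 of 34 had an unadjusted p under 0.05, against 1344 of 16244 genes, and DESeq2 and limma-voom called 0 of 34. The lowest p belonged to Vwf (log2 1.13 ± 0.16, SE; edgeR adjusted p = 0.108), Pecam1 (log2 0.87, adjusted p = 0.204), Cdh5 (log2 0.86, adjusted p = 0.226) and Tagln (log2 1.49, adjusted p = 0.262).

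These values depended on which day stood beside day 3. Set against day 1 alone, without the day 7 pool, the day 3 difference was called higher in Vwf, Pecam1, Slco1a4, Cdh5, Tagln and Cldn5 and lower in Rgs5, with 1214 genes called in all. Set against day 7 alone, without the day 1 pool and so without the library rich in marrow markers, it was called higher in Vwf, Pecam1, Eng, Cdh5, Tagln and Acta2, with 94 genes called in all. In both fits the spread of a gene comes only from the 2 libraries of the pool without injury (1 residual degree of freedom). Both fits also share the day 3 libraries, so they are not independent of each other.

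A steady change of the injury effect with time was not called in any of the 34 genes. The trend on log2 of the day (edgeR, 2 residual degrees of freedom) called 0 of 34, and 0.0% of all genes in each direction. An unadjusted p under 0.05 was reached by 2 of 34 and by 1299 of 16244 genes, and limma-voom called 0 of 34. These 2 were Rgs5, whose side difference fell by 0.31 on the log2 scale for each doubling of the day (SE 0.04; edgeR adjusted p = 0.129), and Vegfa, whose difference fell by 0.23 (SE 0.05; adjusted p = 0.240). DESeq2 called Rgs5 and 48 genes in all. Without the day 3 pool the trend is the contrast of days 1 and 7, each with 1 pool. The spread of that fit comes only from the 2 libraries without injury (1 residual degree of freedom). For each doubling of the day the log2 side difference then changed by -0.31 in Rgs5, -0.23 in Vegfa and -0.37 in Eng. It also fell in Acta2. Without day 1 or day 7 the trend is the contrast of 2 days given above.

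On the uninjured side, the question was whether the contralateral ganglia of operated mice differ from ganglia of mice without injury. Most vessel genes were fitted lower contralaterally, but 0 of 34 were called, with 0.125% of all genes called higher and 0.155% lower (edgeR, left and right without injury summed to 1 sample whose spread is taken from the contralateral libraries, 2 residual degrees of freedom). The log2 difference was negative in 26 of 34 with a median of -0.19, against 0.00 over all genes, and 12 of 34 had an unadjusted p under 0.05, against 1480 of 16747 genes. DESeq2 and limma-voom called 0 of 34 as well. The lowest p belonged to Kdr (0.66-fold, log2 -0.59 ± 0.14, SE; edgeR adjusted p = 0.220), Cdh5 (log2 -0.52, adjusted p = 0.326), Angpt1 (log2 -0.65, adjusted p = 0.352) and Emcn (log2 -0.46, adjusted p = 0.380). All 3 contralateral libraries lay below both libraries without injury in these 4 genes. Without the contralateral library of day 1, the log2 difference was -0.58 in Kdr, -0.44 in Cdh5 and -0.76 in Angpt1. A fit without 1 contralateral library takes its spread from the other 2 alone (1 residual degree of freedom). Sex and pool differ together with the operation here and cannot be told apart from it.

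Further genes of vessel pathways, in 11 lists, gave 20 called higher and 8 called lower in the injury effect among 106 tested, with a median log2 of 0.21, against 10.1% called higher and 8.02% lower over all genes tested, which is also the background for each list. Of 8 angiostatic and vessel matrix genes 4 were higher: thrombospondin Thbs2 stood at 20.5, 48.0 and 26.2 CPM in the injured libraries, at 7.51, 10.2 and 13.2 CPM in the contralateral ones and at 19.0 and 12.7 CPM without injury (log2 1.55 ± 0.28, SE; edgeR adjusted p = 0.0233). The injured libraries lay above all others. The protease gene Adamts1 (log2 1.05) and the secreted lipase inhibitor gene Angptl4 (log2 0.78) rose too. Of 14 sprouting genes, 4 were higher, among them the basement membrane genes Nid2 (log2 0.84) and Lama4 (log2 0.46), and 1 was lower, the semaphorin receptor gene Plxnd1 (log2 -0.26). Of 12 tight junction and barrier genes, 4 were higher and 1 was lower: the glucose transporter Slc2a1 stood at 101, 163 and 139 CPM in the injured libraries, at 74.4, 73.2 and 70.2 CPM in the contralateral ones and at 48.4 and 51.4 CPM without injury (log2 0.86 ± 0.12, SE; edgeR adjusted p = 0.00855). The 3 groups of libraries did not overlap. The monocarboxylate transporter gene Slc16a1 (log2 0.19) was also higher and the junctional gene Cgnl1 (log2 -0.38) lower.

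Among the VEGF family and co-receptors 0 of 7 were higher and 2 lower, the ligand genes Pgf (log2 -0.65 ± 0.13, SE; edgeR adjusted p = 0.0164) and Vegfb (log2 -0.40 ± 0.11, SE; adjusted p = 0.0423). Of 10 endothelial Notch genes, the receptor gene Notch1 was higher (log2 0.41) and the ligand gene Jag2 lower (log2 -0.34). The adhesion and activation list had 2 of 7 higher, Icam1, which leukocytes bind (log2 1.06), and the glycoprotein gene Lrg1 (log2 0.96). Of 11 hypoxia-induced genes 2 were higher, among them Hif1a (log2 0.36), and 2 lower, Pdk1 (log2 -0.35) and Bnip3 (log2 -0.39), which encode mitochondrial proteins. In the vascular tone list 1 of 9 was higher, the endothelin receptor gene Ednrb (log2 0.23), and 1 lower, the angiotensin receptor gene Agtr1a (log2 -0.85 ± 0.09, SE; adjusted p = 0.00218). The TGF-beta receptor list had 1 of 10 higher (Tgfbr2, log2 0.66), the further mural list 1 of 13 (the peptidase gene Anpep, log2 0.70), and the PDGF list 0 of 5 in either direction. Most of these genes are also made by cells other than those of vessels.

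Markers of other cell types in the same libraries moved at day 3 as well. Summed over each list, fibroblast markers were 3.69-fold and macrophage markers 3.68-fold higher on the injured side at day 3, against 1.77-fold for the 19 endothelial genes, 1.13-fold for the 7 pericyte genes and 2.35-fold for the 4 contractile genes. Mcam and Rgs5 make up most of the pericyte sum, and the median ratio was 1.54-fold over 6 countable pericyte genes, against 1.60-fold over the 19 endothelial ones. In CPM, the day 3 sums were 1349 (injured) and 365 (contralateral) for fibroblasts, and 189 (injured) and 51.3 (contralateral) for macrophages. Cell cycle markers were 4.47-fold and erythroid markers 2.65-fold higher at day 3, but 0.16-fold and 0.42-fold at day 1, when the contralateral library held 950 CPM of erythroid markers. At day 7 the sums were 1.65-fold for fibroblasts, 2.38-fold for macrophages, 1.02-fold for endothelial, 0.99-fold for pericyte and 0.75-fold for contractile genes. Lymphatic endothelial markers stood at 1.15, 1.91 and 1.35-fold at days 1, 3 and 7, glial markers at 1.02, 1.49 and 1.07-fold and sensory neuron markers at 0.97, 0.93 and 1.02-fold. No marker was at 0 in all libraries, and the part of these cells in the values of the vessel genes was not tested.

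**Figure D4:**
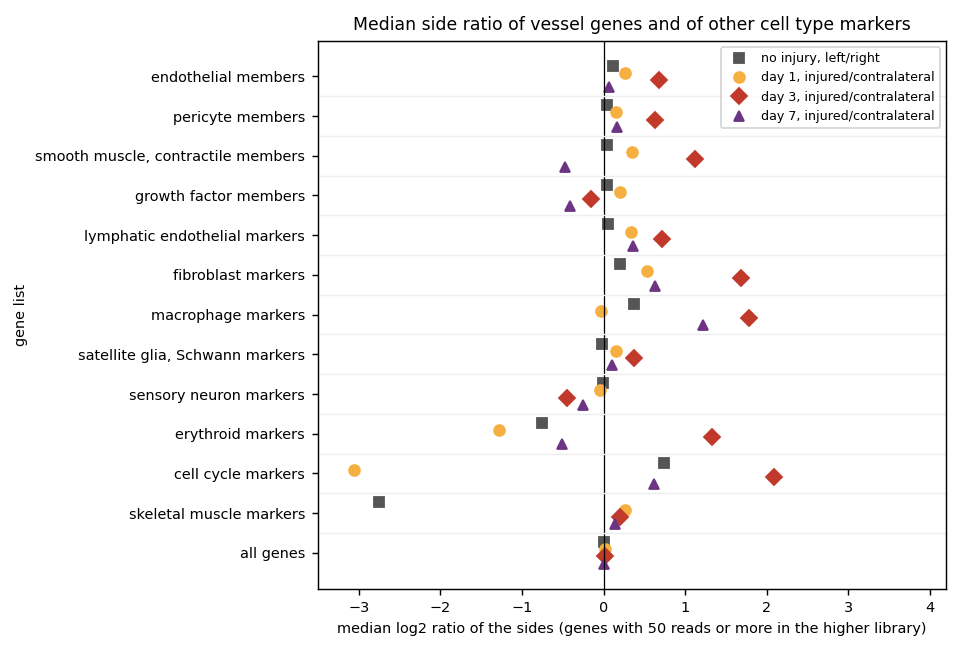
Median log2 side ratio (horizontal axis) of the vessel gene groups, of marker lists of other cell types and of all genes (rows), for left over right without injury and injured over contralateral at days 1, 3 and 7; genes with fewer than 50 reads in the higher library are left out. At day 3 the endothelial, pericyte and contractile medians lie to the right of 0 and below those of fibroblast and macrophage markers, and all genes lie at 0 in each pool.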

How the data were processed

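Whole-number read counts per gene were deposited by the authors for 53801 Ensembl genes in 8 libraries of pooled dorsal root ganglia. The submitters' processing notes list STAR 2.5.4a, cutadapt 1.16, featureCounts 1.6.3, DESeq2 and the build GRCm38 without saying what each did; strand setting and annotation release are not given there. Counts were used as deposited. Names and positions came from GENCODE M21, which matched 53706 gene IDs, and promoters from RefSeq.

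The members and lists were chosen with earlier results of these data known. Tests used edgeR 4.0.16 in R 4.3.3 (TMM, filterByExpr with a minimum count of 10, robust quasi-likelihood F tests, Benjamini-Hochberg adjustment over all genes at 0.05), with limma 3.58.1 and DESeq2 1.42.0 as alternatives, and were checked on simulated counts. No library pair agreed within sampling noise (lowest chi-square per gene 6.05). The mouse pool is the block, since both sides come from the same mice per the design text; within pools, side deviations had correlations of 0.25 (day 1), -0.06 (day 3) and 0.36 (day 7). Nothing says that pools were separate cohorts, so p-values reflect only the spread among these libraries. In the injury, trend and day 3 fits this spread includes the left to right difference of the pool without injury.

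All 34 genes are reported. Values in every library are given for genes past an adjusted p of 0.05, the 2 highest and 2 lowest side ratios each day, Pecam1, Kdr, Pdgfrb and the growth factors; Cdh5, Tek, Sox17, Des and other genes given further values were chosen after their values were seen. Pathway genes are named up to 3 a list by lowest p among those called. Counting intervals are exact (Clopper-Pearson). The 2 listed genes without a unique match (1 pathway gene and 1 lymphatic marker) were left out.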

Additional observations from a re-analysis of the deposited data

Results flagged for a closer look

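The side ratio of Myh11, the smooth muscle myosin gene, lay beyond 1.5-fold in opposite directions at different days: its log2 value was 1.00 at day 3 (95% counting interval of the fold 1.62 to 2.50) and -0.70 at day 7 (0.49 to 0.77). The difference between these days was not tested for this pair alone. In the comparison of day 3 with days 1 and 7 together it had a log2 value of 1.22 ± 0.63 (SE; edgeR adjusted p = 0.674). The left library without injury was 0.71 (log2) above the right one for the same gene, a difference of similar size between uninjured ganglia.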

How the results depend on the processing

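The injury effect called 5 vessel genes higher and 1 lower. Genes lower were 0 with DESeq2, which gave Angpt4 no adjusted p, and 2 with no filter on low counts. Leaving out each pool in turn gave 1 to 7 genes higher and 0 to 2 lower, among 475 to 2382 and 156 to 2287 of all genes, against 1644 and 1302. Without the replicate block that pairs the sides of a pool, 2 were higher (Mcam and Sox18) and 1 lower (Angpt1). With side as a further term, which rests on the pair without injury alone, 0 were higher and 0 lower, and 6 and 0 of all genes. Against the libraries labelled no injury alone 1 was higher (Mcam) and 1 lower (Angpt1), among 703 and 442 of all genes. The trend called 1 vessel gene with DESeq2 (48 in all), 1 with no filter (32 in all), and 0 to 7 (0 to 1214 in all) with a pool left out. The contralateral comparison, with 0 vessel genes and 47 in all, gave 158 in all with DESeq2, 98 with limma-voom, 4 and 698 with no filter, 2 and 372 with left and right as separate samples, and 0 to 6 (16 to 954 in all) with a library left out. Day 3 against the other days, added after the values were seen, gave 27 genes in all with DESeq2 and 0 to 7 vessel genes (0 to 1214 in all) with a pool left out. The trend and day 3 fits without an operated pool take their spread only from the 2 libraries without injury. At 20 reads, 1 vessel gene was 2-fold lower at day 1 and 1 at day 7.

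Signs turned as follows (log2). Without the day 7 pool, Kcnj8 was -0.019 and Vegfa 0.039 in the injury effect, and Egfl7 0.13 and Eng 0.20 in the trend. Without the day 3 pool Acta2 was -0.022, Tagln -0.11, Myh11 -0.20 and Kcnj8 -0.084. Without the block Myh11 was -0.045 and Kcnj8 -0.19, and with side as a term -0.49 and -0.41. Set against only the libraries without injury, Kdr was -0.20, Emcn -0.093, Pdgfrb -0.14, Myh11 -0.39, Kcnj8 -0.45 and Anpep -0.070. With 1 pool left out in turn, the injury effect reached 0.97 in Acta2, 0.79 in Tagln, 0.71 in Myh11, 0.35 in Kcnj8 and -0.29 in Vegfa at the other end, and the trend -0.60 in Egfl7 and -1.12 in Eng. The cause of these changes was not tested. Depth limits Angpt4 and Kcnj8, which had as few as 6 and 23 reads in a library.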
